A study of Homo sapiens with 6 samples.

Results

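The mRNAs of the aminoacyl-tRNA synthetases, together with the scaffold proteins of the multi-synthetase complex, were followed in AGS cells with and without knockdown of the pseudogene transcript ANXA2P1. Members were taken by gene name from an expression table of 11846 genes, and 40 rows matched. They comprised 24 cytosolic members, of which 21 were enzymes and 3 were scaffolds (AIMP1, AIMP2 and EEF1E1), and 16 mitochondrial members, whose names end in 2. AIMP2 also ends in 2 but belongs to the cytosolic complex and was counted there. The mitochondrial valine enzyme VARS2 was not analysed here. All 40 passed the filter on low values.

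AGS is an established human gastric adenocarcinoma line, and poly(A) RNA was sequenced from 3 libraries of cells given a scrambled shRNA (control 1 to 3) and 3 libraries of cells given an ANXA2P1 shRNA pool (knockdown 1 to 3), grown in serum-containing medium. The labels name shRNA, whereas the study's methods describe CRISPR interference with dCas9-KRAB for ANXA2P1 in this line, so the means of knockdown differs between the sources. The replicates are described as biological, but whether they came from separate cultures is not given, and the p-values measure the spread between these libraries. ANXA2P1 was not analysed here, and the knockdown was therefore not checked against the labels.

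Most synthetases join 1 amino acid to the tRNAs that read its codons, in an ATP-dependent reaction that supplies the ribosome. Cytosol and mitochondria mostly use separate enzymes encoded by separate nuclear genes, and the enzymes fall into class I and class II by the fold of the catalytic domain. Several cytosolic enzymes are held together in the multi-synthetase complex. Many cytosolic synthetase genes are known targets of ATF4, a transcription factor made when amino acids run short or the endoplasmic reticulum is stressed, which binds C/EBP-ATF response elements in promoters.

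Such response elements contain the letters TGATGNAA, so these letters were looked for on both strands of the RefSeq promoter windows (GRCh38.p14, 250 bases before to 50 bases after each start). Windows were found for 33 of the 40 members, and AARS2, LARS1, TARS3, VARS1 and YARS1 were among those with none. The letters were present in 7 of 10 cytosolic members that background knowledge lists as ATF4 targets, in 0 of 9 other cytosolic members and in 1 of 14 mitochondrial members, YARS2. Among the genes of the table with a window, 2.76% had them. The 8 matches are shown with 30 bases each, on the strand of the gene, with the match in capitals. TTGCATCA and TTTCATCA are the same pattern read on the other strand. They are shown because 7 of them belong to listed ATF4 targets described below:
AARS1: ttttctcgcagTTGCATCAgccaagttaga
CARS1: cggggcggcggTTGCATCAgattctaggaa
GARS1: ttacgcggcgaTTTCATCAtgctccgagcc
IARS1: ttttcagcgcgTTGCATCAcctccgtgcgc
MARS1: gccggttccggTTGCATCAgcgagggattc
NARS1: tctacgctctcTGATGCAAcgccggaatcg
TARS1: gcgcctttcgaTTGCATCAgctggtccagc
YARS2: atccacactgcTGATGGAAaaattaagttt
These stretches lie at chr16:70289675-70289704 on the minus strand for AARS1, chr11:3057407-3057436 on the minus strand for CARS1, chr7:30594834-30594863 on the plus strand for GARS1 and chr9:92293692-92293721 on the minus strand for IARS1. The others lie at chr12:57488053-57488082 on the plus strand for MARS1, chr18:57621804-57621833 on the minus strand for NARS1, chr5:33440956-33440985 on the plus strand for TARS1 and chr12:32756076-32756105 on the minus strand for YARS2. AARS1, CARS1, IARS1, MARS1 and TARS1 shared the 8 letters TTGCATCA, and NARS1 had the same letters read on the other strand (TGATGCAA). EPRS1, SARS1 and WARS1 had a window without the letters. A match is a description and not a bound site, and its absence says only that the letters are not in that window. Genes may have been listed as ATF4 targets partly because of such elements, so the matches are not independent of the list. The ETS core CCGGAAG, searched in the same way, was in 17 of the 33 members (51.5%) against 22.9% of table genes, and was spread over all 3 groups. The windows with it were those of 6 of 10 listed ATF4 targets, 4 of 9 other cytosolic members and 7 of 14 mitochondrial members.

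The libraries held between 19010940 and 22911995 reads assigned to genes, recovered from the FPKM values (fragments scaled by gene length and by library total). Each member had 108 to 13483 reads in a library. Of the marker genes, all 6 epithelial markers were in the table, summing to 1384 to 1490 FPKM in the control libraries and 1460 to 1638 FPKM in the knockdown libraries, 5 of 8 stomach markers summed to 20.1 to 25.7 and 20.9 to 29.3 FPKM, and 1 of 5 fibroblast markers (COL1A1) to 1.38 to 1.62 and 1.503 to 1.57 FPKM. Of blood cell markers 1 of 4 was in the table, LYZ, at 182 to 374 and 175 to 343 FPKM, and of endothelial markers 0 of 3. Knockdown 1 stood apart from the other libraries with GC content: its median deviation from the control mean, over all tested genes, ran from -0.20 on the log2 scale for transcripts under 42% GC to 0.18 for those of 57% and over. In bulk RNA, fewer cells with a transcript and less of it per cell cannot be told apart.

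The members spanned a wide range of levels, with cytosolic members mostly above mitochondrial ones. The median level over the 6 libraries was 30.2 FPKM for cytosolic members and 9.63 FPKM for mitochondrial members, against 6.64 FPKM for all genes of the table. TARS1, the threonine enzyme, had the highest mean over the 6 libraries, at 103, 101 and 98.5 FPKM in control 1, 2 and 3 and 82.7, 89.7 and 92.9 FPKM in knockdown 1, 2 and 3. EPRS1 (glutamate and proline) and IARS2 (mitochondrial isoleucine) followed, and the values of these neighbours in the order overlapped. In the control libraries alone the mean of EPRS1, 105 FPKM, was above that of TARS1, 101 FPKM. IARS2 measured 88.5, 92.2 and 89.2 FPKM in the control libraries and 78.0, 86.3 and 84.9 FPKM in the knockdown libraries, the highest level of any mitochondrial member. The least abundant were TARS3, a second threonine enzyme related to TARS1, at 2.87, 2.74 and 2.64 FPKM in control and 1.86, 2.81 and 2.77 FPKM in knockdown libraries, and SARS2, the mitochondrial serine enzyme, at 1.598, 1.81 and 1.43 FPKM in control and 2.27, 2.27 and 1.77 FPKM in knockdown libraries. TARS3 was low in knockdown 1 alone.

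**Figure D1:**
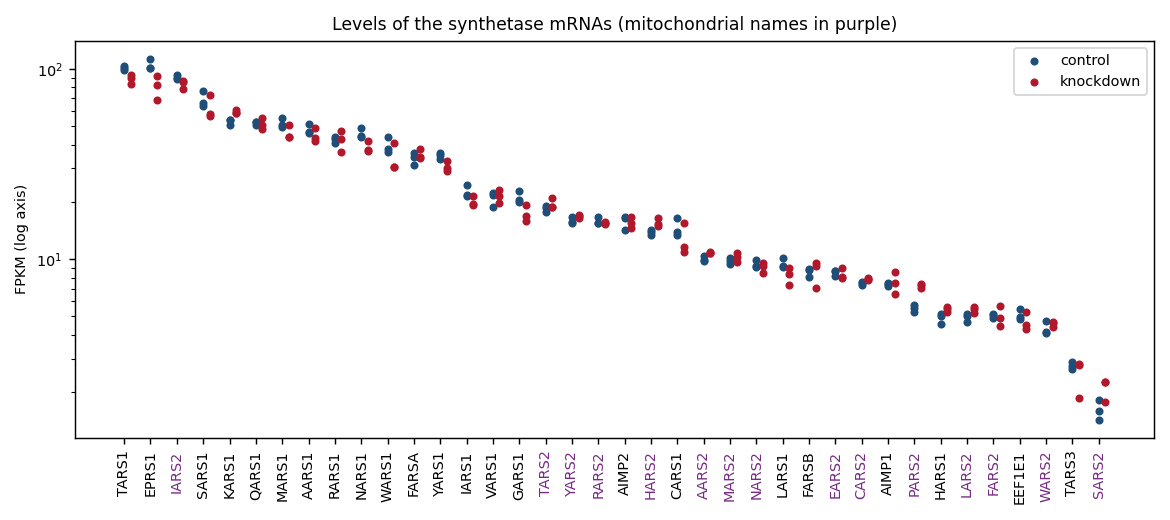
FPKM of 38 of the 40 members on a log axis, ordered by mean level, with 1 point per library (blue, 3 control; red, 3 knockdown) and mitochondrial names in purple. TARS1, EPRS1 and IARS2 stand highest and TARS3 and SARS2 lowest, and IARS2 sits among the most abundant cytosolic members.

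Knockdown against control was tested over 10813 genes with limma on log2(FPKM + 0.1). None of the 40 members passed the adjusted p of 0.05 (0 of 40, against 14 genes or 0.129% of all tested genes, 0.111% lower and 0.0185% higher). At an unadjusted p under 0.05 there were 5 members lower (EPRS1, GARS1, NARS1, YARS1 and TARS1) and 4 higher (KARS1, HARS2, SARS2 and PARS2), where 5.92% and 4.71% of all tested genes did so, 10.6% in all. The same test on the recovered reads (limma voom) also called 0 members, with 10 at an unadjusted p under 0.05, where 0.176% and 10.7% of all genes in that fit did so. With knockdown 1 left out, 3 members passed, where 2.37% of all tested genes did: GARS1 at a log2 change of -0.36 with a limma adjusted p of 0.0290, WARS1 at -0.37 (0.0355) and PARS2 at 0.38 (0.0233). Leaving out control 2 as well called the same 3 members, against 2.03% of all tested genes. For these data the study states a 1.2-fold change, and a p of 0.05 only in its general statistics. Both were combined here, with the unadjusted limma p, and are called the study's cut. At that cut EPRS1 and GARS1 were lower (2 of 40 against 3.35% of all tested genes) and SARS2 and PARS2 higher (2 of 40 against 1.54%), 4 of 40 against 4.88% in all. The groups did not overlap for 7 members with lower knockdown values, against 9.13% of all tested genes, and for 7 with higher values, against 9.86%, which makes 14 of 40 against 19%. The first 7 were EPRS1, GARS1, NARS1, LARS1, YARS1, TARS1 and IARS2, and the second 7 were HARS1, KARS1, CARS2, AARS2, LARS2, HARS2 and PARS2.

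**Figure D2:**
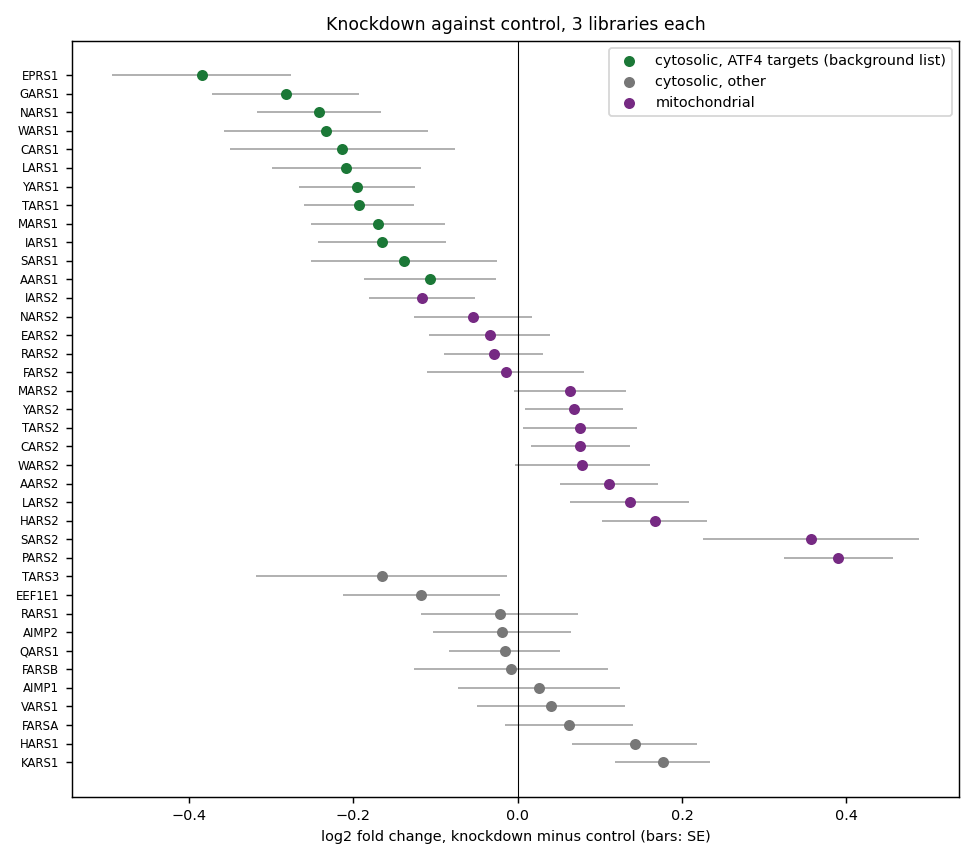
Log2 fold change of 38 members, knockdown minus control, with its standard error as a bar, for 3 libraries per group. The 12 cytosolic members listed as ATF4 targets (green) lie between -0.38 and -0.11, the other cytosolic members (grey) lie on both sides of 0, and PARS2 has the highest value at 0.39.

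Cytosolic and mitochondrial members had medians of opposite sign, a description with no test. The median log2 fold change was -0.13 over the 24 cytosolic members, 19 of them negative, and 0.07 over the 16 mitochondrial members, 6 of them negative. The median over all tested genes was 0.010, with 46.9% negative. Summed over members, the cytosolic mRNAs measured 821, 864 and 823 FPKM in the control libraries and 766, 757 and 772 FPKM in the knockdown libraries, with no overlap. The mitochondrial mRNAs measured 235, 236 and 237 FPKM in the control libraries and 231, 240 and 237 FPKM in the knockdown libraries, with the groups overlapping. Members took 0.653%, 0.696% and 0.657% of recovered reads in control 1, 2 and 3 and 0.619%, 0.604% and 0.619% in knockdown 1, 2 and 3.

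The lower cytosolic values belonged mostly to the 12 members listed as ATF4 targets (AARS1, CARS1, EPRS1, GARS1, IARS1, LARS1, MARS1, NARS1, SARS1, TARS1, WARS1 and YARS1). All 12 had a negative log2 fold change, against 46.9% of all tested genes, from -0.38 for EPRS1 to -0.11 for AARS1, with a median of -0.20. In the limma fit 0 of the 12 passed the adjusted p, where 0.111% of all tested genes did so with lower values. An unadjusted p under 0.05 was reached by 5 of the 12, all lower, against 5.92% of all tested genes. Of the 12 other cytosolic members, 7 were negative, with a median of -0.012. The listed members summed to 542, 600 and 543 FPKM in the control libraries and 495, 467 and 488 FPKM in the knockdown libraries. The other cytosolic members summed to 278, 264 and 280 FPKM in control and 271, 290 and 284 FPKM in knockdown libraries, so that control 2 was the highest library for the first sum and the lowest for the second.

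**Figure D3:**
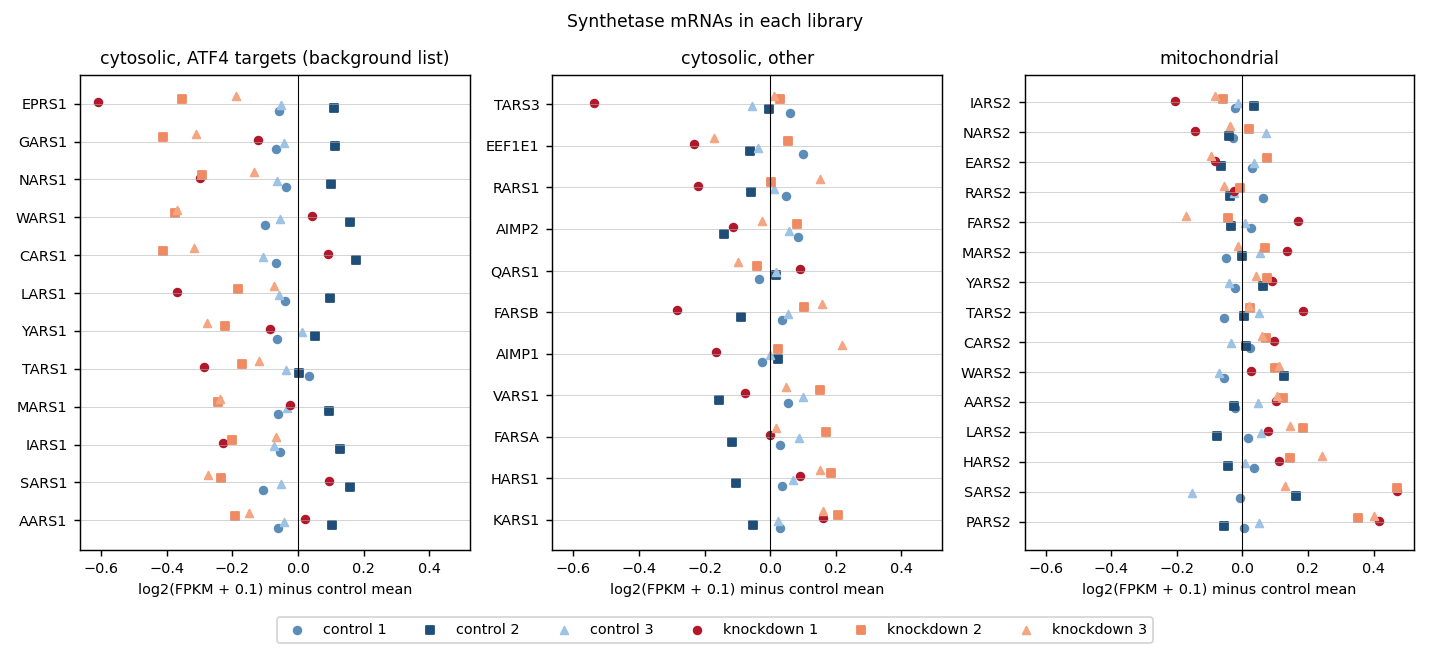
Log2(FPKM + 0.1) of 38 members in each library minus the member's control mean, in 3 panels (cytosolic members listed as ATF4 targets, other cytosolic members, mitochondrial members), with blue symbols for control and red and orange for knockdown libraries. In the first panel knockdown 2 and 3 lie below 0 for every member, while knockdown 1 lies above 0 for SARS1, CARS1, WARS1 and AARS1 and furthest below for EPRS1.

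EPRS1 encodes a fused enzyme that charges both glutamate and proline tRNAs and sits in the multi-synthetase complex (chr1:219968601-220046658, minus strand). It measured 101, 113 and 101 FPKM in control 1, 2 and 3 and 68.5, 81.9 and 91.8 FPKM in knockdown 1, 2 and 3. All 3 knockdown libraries were below all 3 controls, with knockdown 1 the lowest. The mean was 105 ± 7.01 FPKM (SD, n = 3) in control and 80.7 ± 11.7 FPKM (SD, n = 3) in knockdown, a log2 fold change of -0.38 (SE 0.11, limma adjusted p = 0.258). Without knockdown 1 the value was -0.27 (limma adjusted p = 0.101). LARS1, the leucine enzyme of the same complex, measured 9.23, 10.2 and 9.12 FPKM in control and 7.33, 8.34 and 9.02 FPKM in knockdown libraries, a log2 fold change of -0.21 (SE 0.09, limma adjusted p = 0.469). Its groups also did not overlap, although knockdown 3 came close to control 3. Without knockdown 1 LARS1 was at -0.13.

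GARS1, the glycine enzyme, which makes both the cytosolic and the mitochondrial form from 1 gene, lies at chr7:30594681-30634033 on the plus strand. It measured 20.1, 22.7 and 20.4 FPKM in control and 19.3, 15.8 and 16.9 FPKM in knockdown libraries, without overlap and with knockdown 1 nearest to the controls. The log2 fold change was -0.28 (SE 0.09, limma adjusted p = 0.311). WARS1, the tryptophan enzyme, which is also known as an interferon-induced gene, measured 36.7, 43.9 and 37.9 FPKM in control and 40.6, 30.3 and 30.5 FPKM in knockdown libraries. Its groups overlapped through knockdown 1 alone, and the log2 fold change was -0.23 (SE 0.12, limma adjusted p = 0.553). CARS1, the cysteine enzyme, had the same layout, at 13.8, 16.4 and 13.4 FPKM in control and 15.4, 10.9 and 11.6 FPKM in knockdown libraries (log2 fold change -0.21, SE 0.14, limma adjusted p = 0.628). CARS1 was at -0.37 without knockdown 1, at -0.11 without knockdown 2 and at -0.13 without control 2, and WARS1 at -0.15 without control 2.

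NARS1, the asparagine enzyme, measured 44.6, 49.0 and 43.6 FPKM in control and 37.1, 37.3 and 41.6 FPKM in knockdown libraries, with no overlap and a log2 fold change of -0.24 (SE 0.07, limma adjusted p = 0.300). YARS1, the tyrosine enzyme, measured 33.5, 36.3 and 35.3 FPKM in control and 33.0, 30.03 and 28.9 FPKM in knockdown libraries, and the highest knockdown value lay just under the lowest control. Its log2 fold change was -0.20 (SE 0.07, limma adjusted p = 0.379). TARS1, whose values are given above, had a log2 fold change of -0.19 (SE 0.07, limma adjusted p = 0.350), with knockdown 1 lowest. The remaining listed members, MARS1, IARS1, SARS1 and AARS1, which charge methionine, isoleucine, serine and alanine tRNAs, had log2 fold changes between -0.17 and -0.11 with overlapping groups. Leaving out single libraries moved SARS1 between -0.25 (without knockdown 1) and -0.059 (without control 2), AARS1 between -0.17 and -0.055 with the same libraries, and IARS1 to -0.10 without control 2.

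KARS1, the lysine enzyme, a complex member that also supplies mitochondria from the same gene, went the other way. It measured 53.7, 50.7 and 53.5 FPKM in control and 58.9, 60.7 and 58.9 FPKM in knockdown libraries, with every knockdown library above every control. The log2 fold change was 0.18 (SE 0.06, limma adjusted p = 0.322). HARS1, the histidine enzyme, had non-overlapping groups in the same direction and a log2 change of 0.14 (limma adjusted p = 0.554), or 0.090 without control 2. Over the 11 members of the multi-synthetase complex (8 enzymes and 3 scaffolds) 9 were negative, against 46.9% of all tested genes, with a median of -0.028. Among the 13 cytosolic enzymes outside the complex 10 were negative, with a median of -0.17. The scaffolds AIMP1, AIMP2 and EEF1E1 had log2 fold changes of 0.026, -0.019 and -0.12, all with overlapping groups. RARS1 and QARS1, the arginine and glutamine enzymes of the complex, had log2 fold changes of -0.022 and -0.016.

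Of the mitochondrial members, PARS2, the proline enzyme, had the lowest p of all 40. It lies at chr1:54756898-54764514 on the minus strand and measured 5.53, 5.30 and 5.71 FPKM in control and 7.39, 7.06 and 7.31 FPKM in knockdown libraries. The mean was 5.51 ± 0.207 FPKM (SD, n = 3) in control and 7.25 ± 0.172 FPKM (SD, n = 3) in knockdown, a log2 fold change of 0.39 (SE 0.07, limma adjusted p = 0.0721). All 3 knockdown libraries were above all controls, knockdown 1 included. SARS2, whose values are given above, had a log2 fold change of 0.36 (SE 0.13, limma adjusted p = 0.384), and knockdown 3 lay below control 2. Its values rested on 108 to 160 reads per library, the fewest of the 40 members. SARS2 shares 349 exonic bases with MRPS12 on the opposite strand and 1492 with a readthrough gene on its own strand, so its level is uncertain.

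HARS2, the mitochondrial histidine enzyme, measured 14.2, 13.4 and 13.9 FPKM in control and 14.9, 15.3 and 16.4 FPKM in knockdown libraries, with no overlap and a log2 fold change of 0.17 (SE 0.06, limma adjusted p = 0.409). LARS2 (leucine) measured 4.99, 4.67 and 5.14 FPKM in control and 5.21, 5.62 and 5.46 FPKM in knockdown libraries, with a log2 fold change of 0.14 (SE 0.07, limma adjusted p = 0.554). AARS2 (alanine) measured 9.84, 9.82 and 10.4 FPKM in control and 10.8, 10.9 and 10.8 FPKM in knockdown libraries, with a log2 fold change of 0.11 (SE 0.06, limma adjusted p = 0.559). All 3 had every knockdown library above every control. In the fit described below, with the GC and length trend removed, only HARS2 of these 3 kept this. There knockdown 1 lay below control 3 for LARS2 (0.046 against 0.064) and AARS2 (-0.033 against 0.037), as deviations from the control mean. The log2 change of AARS2 was then 0.059. IARS2 was the mitochondrial member with the lowest value, a log2 fold change of -0.12 (SE 0.06, limma adjusted p = 0.573), or -0.072 without knockdown 1, and its groups did not overlap. HARS1 and HARS2 lie head to head on chromosome 5 with starts 436 bases apart and share 437 exonic bases on opposite strands, and both were higher. Since no source used here states the strand setting of the counting, reads of such pairs may have been counted for either gene. In all, 14 members share exonic bases with another protein-coding gene.

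For 17 pairs of a cytosolic and a mitochondrial gene of the same amino acid, the ratio within a library does not depend on that library's scaling. The cytosolic gene had the higher control level in 15 pairs, the exceptions being isoleucine and histidine. The ratio was lower in the knockdown in 13 pairs, without overlap in 7, and higher without overlap in 0, with a median log2 difference of -0.23. The same share was not worked out for ratios of other genes, so these counts have no background to be read against. EPRS1 against PARS2, the pair for proline, had the largest difference of the 17. Its log2 ratio was 4.16, 4.39 and 4.12 in control and 3.20, 3.52 and 3.63 in knockdown libraries, a difference of -0.77. The log2 ratio of SARS1 to SARS2, for serine, was 5.23, 5.32 and 5.42 in control and 4.95, 4.62 and 4.92 in knockdown libraries, a difference of -0.49. EPRS1 and FARS2 each enter 2 pairs, so the pairs are not independent, and no test was run on them.

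**Figure D4:**
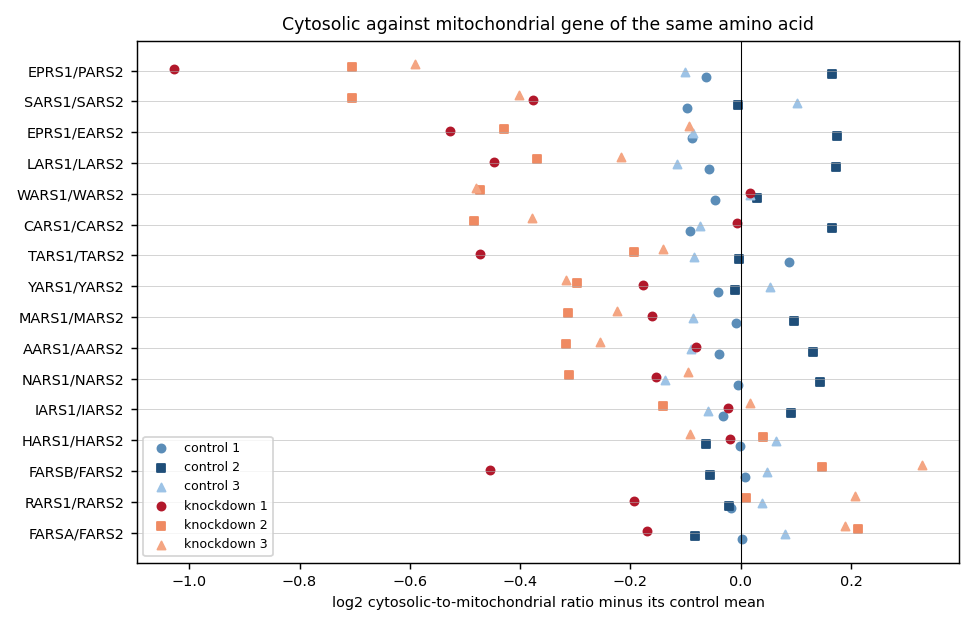
Log2 ratio of the cytosolic to the mitochondrial gene of the same amino acid in each library, minus its mean in the 3 control libraries, for 16 of the 17 pairs. For EPRS1/PARS2 and SARS1/SARS2 all 3 knockdown libraries lie well below all 3 controls, and the knockdown libraries of the 3 pairs at the bottom lie on both sides of 0.

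The position of knockdown 1 differed among the 12 listed ATF4 targets. In 7 of them (SARS1, AARS1, GARS1, CARS1, YARS1, WARS1 and MARS1) it was the highest knockdown library, and their transcripts had 48.6% to 55.7% GC. In the other 5 (TARS1, LARS1, NARS1, EPRS1 and IARS1) it was the lowest, and theirs had 41.5% to 44.3% GC, so that the GC ranges did not overlap. Median deviations from the control mean in knockdown 1, 2 and 3 were 0.023, -0.24 and -0.28 for the first 7 and -0.30, -0.20 and -0.12 for the other 5. This split was made after the values were seen.

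In a fit chosen after seeing the data, in which each library's trend with GC and length was removed, all 12 listed members stayed negative, with a median of -0.21. Knockdown 1 was still the highest knockdown library in 7 (SARS1, AARS1, GARS1, CARS1, YARS1, WARS1 and MARS1) and the lowest in 3 (EPRS1, LARS1 and TARS1). Of the 12, 9 had an unadjusted p under 0.05, where 6.52% of all tested genes did so in the same direction, and 9 had non-overlapping groups with lower values, where 9.23% did. Of the 16 mitochondrial members, 3 had non-overlapping groups with higher values, where 10.8% of all tested genes did. Before the trend was removed, 5 mitochondrial members had. No member passed the adjusted p in that limma fit (0 of 40, against 0.454% of all tested genes, with 13 at an unadjusted p under 0.05, against 12.7%), and PARS2 came nearest at 0.35 on the log2 scale (limma adjusted p = 0.0588), followed by YARS1 with -0.24 (0.0895) and EPRS1 with -0.34 (0.0911).

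**Figure D5:**
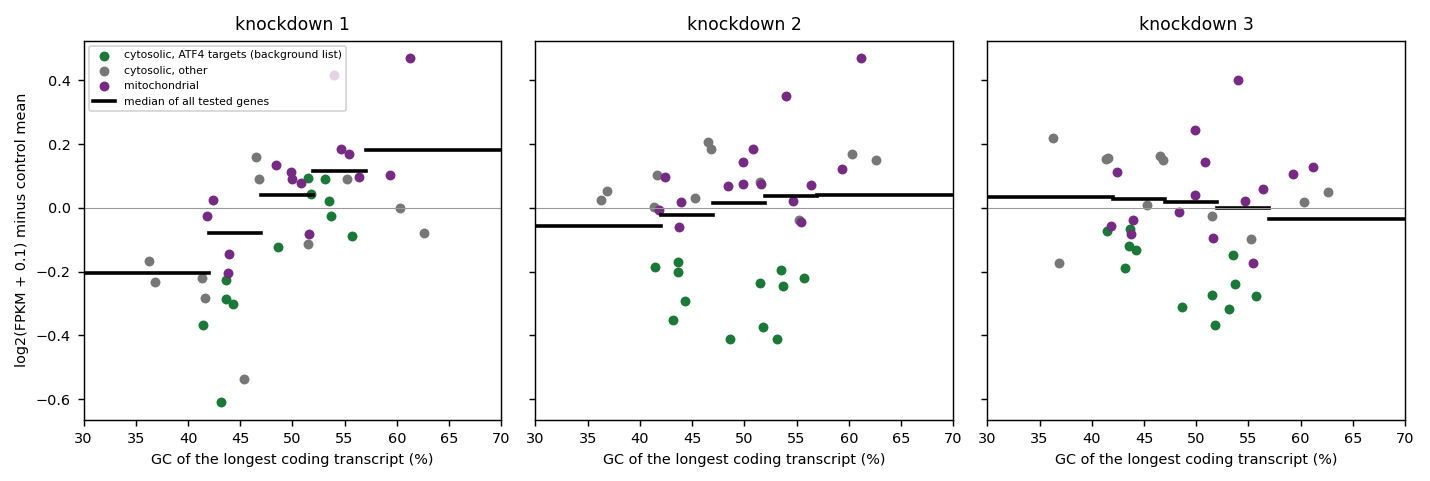
Log2(FPKM + 0.1) of 38 members minus the control mean against the GC percentage of its longest coding transcript, in knockdown 1, 2 and 3. Black bars give the median of all tested genes in each GC range; they run from -0.20 to 0.18 in knockdown 1 and stay nearer 0 in the other panels, and the members listed as ATF4 targets (green) lie below them except SARS1 and WARS1 in knockdown 1.

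Genes around the charging step were described from lists in the same way. All 10 amino acid transporters were negative (median log2 fold change -0.33), and 4 of them met the study's cut with lower values, against 3.35% of all tested genes. SLC7A11, the cystine transporter, measured 20.7, 30.4 and 22.8 FPKM in control and 17.7, 13.5 and 18.4 FPKM in knockdown libraries (log2 fold change -0.57, limma adjusted p = 0.259). SLC38A1, a glutamine transporter, had -0.35 (0.150), SLC7A1, which carries arginine and lysine, had -0.34 (0.278), and SLC7A5, which carries large neutral amino acids, had -0.28 (0.318). None of the 10 passed the adjusted p in the limma fit (0 of 10). At an unadjusted p under 0.05, 4 of the 10 were lower, against 5.92% of all tested genes.

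Of 21 other genes of the ATF4 response that were tested, 16 were negative, against 46.9% of all tested genes, with a median of -0.14. Their median deviation from the control mean was 0.17, -0.33 and -0.29 in knockdown 1, 2 and 3, so knockdown 1 went the other way. Groups did not overlap, with lower values, for 2 of the 21, against 9.13% of all tested genes. In the limma fit 0 passed the adjusted p, and 2 were lower at an unadjusted p under 0.05, against 5.92% of all tested genes. MTHFD2, a mitochondrial folate enzyme, measured 23.2, 27.8 and 23.8 FPKM in control and 21.0, 14.3 and 14.5 FPKM in knockdown libraries (log2 fold change -0.60, limma adjusted p = 0.185), and PSAT1, of serine synthesis, had -0.39 (0.441). ATF4 mRNA itself measured 229, 251 and 233 FPKM in control and 287, 210 and 212 FPKM in knockdown libraries, a log2 fold change of -0.023 with knockdown 1 the highest of all libraries. Control 2 and knockdown 1 were each the highest of their group for 19 of these 21 genes, for 8 of the 10 transporters and for 7 of the 12 listed synthetases, against 22.5% of all tested genes.

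Among 23 tested genes of tRNA maturation and export the median was 0.012. XPOT, the tRNA exporter, measured 39.5, 47.1 and 39.4 FPKM in control and 34.9, 31.7 and 33.9 FPKM in knockdown libraries, without overlap (log2 fold change -0.32, limma adjusted p = 0.218). Of 20 RNA polymerase III genes, which transcribe and assemble on tRNA genes, 14 were positive with a median of 0.07, while GTF3C5, a subunit of the TFIIIC factor, had -0.32 (limma adjusted p = 0.220). The 14 genes listed for GCN2 signalling were evenly divided, 7 negative and 7 positive, with a median of 0.012. GCN2 is the kinase that senses uncharged tRNA. The list also held other kinases of the same translation factor, eIF2, and its subunit EIF2S1. Subunits of the exchange factor eIF2B and the phosphatase regulators PPP1R15A and PPP1R15B were in it too, so it is wider than GCN2 alone. The 4 mitochondrial charging partners, which include GATB and GATC of the enzyme that completes glutamine charging, had a median of 0.029. The 4 elongation factors had -0.018, and the 5 genes of a list for proofreading and hydrolysis had -0.058. That list also held PSTK and SEPSECS, which make selenocysteine tRNA and neither proofread nor hydrolyse. No gene of these lists passed the adjusted p in the limma fit. At an unadjusted p under 0.05 in that fit, 3 of 23 genes of tRNA maturation and export and 2 of 20 of RNA polymerase III were lower. Of all tested genes 5.92% were so. EEF1D, 1 of the 4 elongation factor genes, was higher, against 4.71% of all tested genes.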

How the data were processed

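Poly(A) RNA-seq libraries of AGS cells (3 control, 3 knockdown) were analysed from 1 table of FPKM values that the authors deposited. The submitters' processing notes name Bowtie2, TopHat and hg38. For the read counter, the gene annotation and the strand setting, nothing is stated by any source used here. The table had 0 other columns of per-sample values. Genes with a mean of at least 0.5 FPKM (10813 of 11846) were fitted as log2(FPKM + 0.1) with limma 3.58.1 in R 4.3.3 (trend and robust settings, two-sided) and Benjamini-Hochberg adjustment over all tested genes. Whole reads were recovered from the deposited FPKM values for 99.98% of genes, within a tolerance of 0.001 to 0.05 reads, and fitted with voom as an alternative. Scripts were tested on simulated data. Of the members, 2 entered all counts and medians but are not reported here singly.

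Positions and GC content came from GENCODE 29 and promoters from RefSeq. Members were described in full at an unadjusted p under 0.05, among the 6 largest changes of each compartment, or as the most and least abundant. From the other lists, genes at the study's cut or the 3 largest changes were eligible to be named, and ATF4 was added after its values were seen. Members and lists were chosen with earlier results of these data known, and the list of ATF4 targets comes from background knowledge. Alternatives covered pseudocount, filter, scaling, moderation, weights, reads, replicate block and left-out libraries. Removing the GC and length trend, and leaving out control 2 with knockdown 1, were added after seeing the data.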

Additional observations from a re-analysis of the deposited data

How the results depend on the processing

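Over 19 settings, the cytosolic median stayed negative and the mitochondrial median positive. With single libraries left out, the cytosolic median ran from -0.15 to -0.096, the mitochondrial median from 0.043 to 0.084, their difference, -0.20 with all libraries, had its smallest size without knockdown 1 at -0.14, members past the adjusted p numbered 0 to 3, and members at the study's cut 2 to 6. Array weights also left 2 members at that cut. Leaving out both control 2 and knockdown 1 gave a cytosolic median of -0.075, a difference of -0.12 and 3 members past the adjusted p: GARS1 (-0.31, limma adjusted p = 0.0407), WARS1 (-0.29, 0.0344) and PARS2 (0.35, 0.0400). Removing the GC and length trend gave a mitochondrial median of 0.043. The count of called genes overall ran from 0 to 256, highest without knockdown 1.

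Some members changed sign, most of them near 0. With array weights RARS1 was 0.033, FARSA -0.036 and VARS1 -0.047. Without control 2 and knockdown 1, RARS1 was 0.048, FARSB 0.085 and TARS3 0.018, while RARS2 stayed negative at -0.049. With the GC and length trend removed, RARS1 was 0.042, FARSB 0.054, RARS2 0.027 and VARS1 -0.018. With single libraries left out, log2 fold changes ran from -0.11 to 0.077 for RARS1, -0.090 to 0.13 for FARSB, -0.089 to 0.029 for AIMP2, -0.071 to 0.12 for AIMP1, -0.048 to 0.0029 for RARS2, -0.037 to 0.10 for VARS1, -0.11 to 0.064 for FARS2, -0.069 to 0.025 for QARS1 and -0.26 to 0.020 for TARS3. The cause was not tested.

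Replicate numbers did not pair the samples: deviations of same-numbered libraries correlated at -0.34, -0.47 and -0.12. With the replicate number as a block, 0 members and 1 gene overall passed the adjusted p, with 5 of 40 members and 680 of 10813 genes at an unadjusted p under 0.05.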
